A study of Mus musculus with 2 samples.

Results

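The mGluR6 signalling complex of ON bipolar cells was examined through 10 genes, Grm6, Trpm1, Gpr179, Lrit3, Nyx, Rgs7, Rgs11, Gnao1, Cacna1s and Prkca. They were chosen by gene symbol for a known or reported role at this synapse, and 10 of the 32227 genes in the deposited gene table carried these symbols. Nuclei of whole retinas from C57 BL/6J mice on postnatal day 21 were sequenced (PIPseq, in which nuclei are partitioned with template particles and each captured transcript carries a unique molecular identifier, or UMI). The Cre- library came from age-matched animals without the Cre transgene, which the labels give as wild type. The Tet tcKO library came from animals with floxed Tet1, Tet2 and Tet3, the enzymes that oxidise 5-methylcytosine, recombined by the Chx10-Cre-GFP transgene, which is active in retinal progenitors. Each genotype was 1 library made from 2 dissociation pools of at least 4 retinas each, and the deposited tables do not assign nuclei to a pool. No difference between the genotypes could therefore be set against replicates, and the 95% intervals given cover counting error only.

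ON bipolar cells receive glutamate from photoreceptors through the metabotropic receptor mGluR6, which acts through the G protein subunit Gαo to close the cation channel TRPM1. In light, glutamate release falls, RGS proteins speed the deactivation of Gαo, and the channel opens, so that the cell depolarises. The receptor, the channel, the orphan receptor GPR179 and the leucine-rich repeat proteins nyctalopin and LRIT3 gather at the dendritic tips, and loss of these components is a known cause of congenital stationary night blindness.

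In Cre- 11510585 UMIs were counted in 7357 nuclei (median 1107 per nucleus), and in Tet tcKO 16590747 UMIs in 6766 nuclei (median 1836.5). The libraries shared 1 cell barcode. The authors' mitochondrial percent had a median of 9.52% in Cre- and 5.38% in Tet tcKO. The targeted genes, as counted by 3' tags that need not lie in the floxed exons, stood at 50.2 and 61.2 CPM (UMIs of a gene scaled to 1000000 UMIs in all) for Tet1, 105 and 139 CPM for Tet2 and 180 and 174 CPM for Tet3, so they do not check the genotype labels. The authors annotated 674 Cre- nuclei (9.16% of nuclei, 15.3% of UMIs) and 1649 Tet tcKO nuclei (24.4% of nuclei, 26.8% of UMIs) as bipolar. They annotated 5214 Cre- and 6 Tet tcKO nuclei as rods, and 265 and 3225 as cones. The bipolar name did not pass the marker check in full. In 1 of the 9 bipolar-annotated clusters, cluster 35, a gene of the amacrine marker list (Tfap2a) and none of the bipolar list stood among the 10 leading genes when each gene was counted once per nucleus. Cluster 43 of Tet tcKO passed, but several of its leading genes also led Müller glia cluster 37. Its Müller markers summed to 1093 CPM, the most among bipolar-annotated clusters of at least 20 nuclei, and its bipolar markers outside the members to 3327 CPM. The 14 bipolar markers other than the members (a list that includes Gnb3, also a cone gene) summed to 2347 CPM in bipolar-annotated and 1898 CPM in rod- and cone-annotated Cre- nuclei, and to 2675 and 2686 CPM in Tet tcKO. In Cre-, the 8 rod markers summed to 10574 CPM in cone-annotated and 8236 CPM in rod-annotated nuclei. The 8 cone markers summed to 1507 and 1303 CPM there, so the Cre- cone name was weakly borne out by its markers. Rods (2 clusters, 32 and 40), cones (cluster 50) and Müller glia (cluster 30) also had clusters that did not pass, while amacrine cells, RGCs (retinal ganglion cells) and horizontal cells had none. Levels in bipolar-annotated nuclei, rods, cones and Müller glia were therefore described within each library and not compared between genotypes.

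The members fall into compact and long genes. On GRCm39, Grm6 (ENSMUSG00000000617) lies at chr11:50741512-50757035 on the plus strand, Gpr179 (ENSMUSG00000070337) at chr11:97222935-97242903 on the minus strand, Lrit3 (ENSMUSG00000093865) at chr3:129581530-129597679 on the minus strand and Trpm1 (ENSMUSG00000030523) at chr7:63803583-63922019 on the plus strand. Rgs7 and Prkca span 434364 and 410888 bases, against 15524 for Grm6 and 8926 for Rgs11. All 10 members overlap another annotated gene. Gpr179 overlaps the protein-coding gene Mrpl45 on the opposite strand, Rgs11 overlaps Arhgdig and Fam234a, and Prkca overlaps Apoh. Trpm1 holds the microRNA gene Mir211. The sources used here do not say whether reads were assigned by strand, so counts of overlapping genes may share reads.

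Because TET enzymes act on methylated cytosine at CpG sites, the 250 bases upstream of the annotated start are shown for the receptor, the channel, the orphan receptor and the member that was higher in Tet tcKO, with each CpG in capitals. The sequences were read from GRCm39 at the GENCODE vM39 canonical start, and are written 5′ to 3′ on the strand of the gene.
Grm6: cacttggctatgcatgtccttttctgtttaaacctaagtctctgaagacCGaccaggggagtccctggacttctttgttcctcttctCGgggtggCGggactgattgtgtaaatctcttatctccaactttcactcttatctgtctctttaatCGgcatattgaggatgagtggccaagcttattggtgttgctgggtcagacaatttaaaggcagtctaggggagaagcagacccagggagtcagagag
Trpm1: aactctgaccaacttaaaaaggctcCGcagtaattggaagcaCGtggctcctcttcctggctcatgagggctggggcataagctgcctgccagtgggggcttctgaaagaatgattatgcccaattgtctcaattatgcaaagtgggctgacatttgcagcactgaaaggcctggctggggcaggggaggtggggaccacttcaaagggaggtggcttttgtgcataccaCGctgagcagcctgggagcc
Gpr179: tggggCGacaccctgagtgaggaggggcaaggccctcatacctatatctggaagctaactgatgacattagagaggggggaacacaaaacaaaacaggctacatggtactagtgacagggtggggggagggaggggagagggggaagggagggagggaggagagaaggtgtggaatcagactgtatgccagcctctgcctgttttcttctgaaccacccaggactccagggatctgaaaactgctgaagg
Lrit3: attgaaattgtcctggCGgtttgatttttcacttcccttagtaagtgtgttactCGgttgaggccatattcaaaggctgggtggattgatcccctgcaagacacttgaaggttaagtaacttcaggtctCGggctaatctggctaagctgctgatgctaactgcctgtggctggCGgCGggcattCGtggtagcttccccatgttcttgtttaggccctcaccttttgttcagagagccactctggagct
The windows are chr11:50741262-50741511 for Grm6, chr7:63834938-63835187 for Trpm1, chr11:97242843-97243092 for Gpr179 and chr3:129597680-129597929 for Lrit3. The Trpm1 window lies inside the gene's outer bounds, since the canonical transcript starts downstream of the first annotated base. Grm6 had 4 CpGs, Trpm1 had 3, Gpr179 had 1 and Lrit3 had 6, against a median of 8 over 21770 promoters of protein-coding genes. Nyx and Cacna1s had 2 each. Rgs11 had 9 and Prkca 8, while Rgs7 had 32 and Gnao1 had 47. The members thus ranged from 1 to 47 CpGs with a median of 5, and 6 of 10 lay below the median of all promoters. The letters TAATCC, the core bound by OTX2 and CRX, were searched on both strands and were found in 0 of the 10 windows, against 7.0% of all promoters. The letters TAATTA, a homeodomain core that reads the same on both strands, were also found in 0 of 10, against 5.18% of all promoters. Methylation was not analysed here.

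Over all nuclei of a library, transcripts of the receptor, the channel and most of their partners were lower in Tet tcKO than in Cre-, and Lrit3 was higher. Such sums mix cell classes, so a different number of nuclei of a type and a different amount of RNA per nucleus cannot be told apart in them. Grm6, the receptor, stood at 228 CPM (2625 UMIs) in the Cre- library against 185 CPM (3061 UMIs) in the Tet tcKO library, giving a log2 ratio of -0.31 (interval -0.38 to -0.23). Trpm1 stood at 803 CPM (9248 UMIs) and 285 CPM (4729 UMIs), a log2 ratio of -1.50 (interval -1.55 to -1.44). The channel transcript thus differed by a larger factor than the receptor transcript, and their intervals did not overlap. The Grm6 value was -0.074 when each Tet tcKO class was weighted by its Cre- share, with rods and cones as 1 class, against -1.54 for Trpm1.

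Gpr179 stood at 171 CPM in the Cre- library against 107 CPM in the Tet tcKO library, giving a log2 ratio of -0.67 (interval -0.76 to -0.57). Nyx was sparse, with 64 UMIs in the Cre- and 58 in the Tet tcKO library, or 5.56 and 3.50 CPM, and its log2 ratio of -0.67 had an interval of -1.21 to -0.13. Lrit3 stood at 11.9 CPM (137 UMIs) in the Cre- library against 29.4 CPM (487 UMIs) in the Tet tcKO library, giving a log2 ratio of 1.30 (interval 1.03 to 1.59). Nyx and Lrit3 encode related leucine-rich repeat proteins, and their ratios had opposite signs.

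Among the components that end the G protein signal, Rgs7 stood at 407 CPM and 379 CPM, a log2 ratio of -0.10 (interval -0.16 to -0.05). Rgs11, whose product shares this task with RGS7 at the ON bipolar dendrite, stood at 185 CPM and 104 CPM, a log2 ratio of -0.84 (interval -0.93 to -0.74). Gnao1, which encodes Gαo and is used by many neurons, stood at 397 CPM and 367 CPM, a log2 ratio of -0.11 (interval -0.17 to -0.06). All 3 intervals lay below 0, and Rgs11 had the largest difference of the 3.

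Cacna1s, which encodes a calcium channel subunit, had 145 UMIs in the Cre- and 58 in the Tet tcKO library, or 12.6 and 3.50 CPM. Its log2 ratio was -1.85 (interval -2.31 to -1.40). Prkca, the kinase PKCα used as a rod bipolar marker, stood at 1296 CPM and 829 CPM, a log2 ratio of -0.64 (interval -0.68 to -0.61).

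Differences past 2-fold were counted where a gene reached 10 CPM in either library, which 9 of the 10 members did (Nyx did not). Lrit3 was the 1 member higher by 2-fold, where 3.18% of the 11158 genes were. Trpm1 and Cacna1s were the 2 members lower by 2-fold, where 2.48% of all genes were. With TMM scaling the genes past 2-fold were 271 higher and 361 lower, against 355 and 277 by totals, and the members' counts were again 1 and 2. The interval lay below 0 for 8 of the 9 members, against 22.5% of all genes, and above 0 for 1, against 45.7%. The median log2 ratio was -0.66 over the 10 members and 0.15 over all genes.

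**Figure D1:**
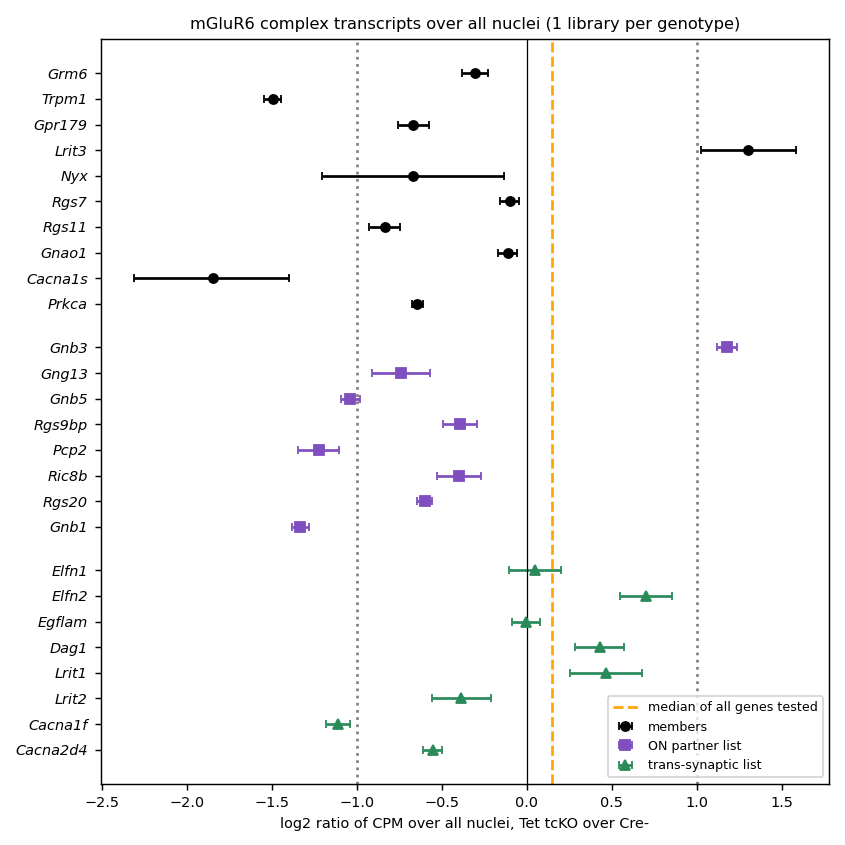
Log2 ratio of CPM over all nuclei, Tet tcKO over Cre-, for the 10 members (circles), other ON pathway genes (squares) and trans-synaptic genes (triangles). Bars are 95% intervals for counting error, dotted lines mark 2-fold and the dashed line the median of all genes (0.15). Lrit3 lies past 2-fold on the right, and Trpm1 and Cacna1s on the left.

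Other genes of the cascade were taken from a list of 8 ON pathway partners. The list had 1 gene higher and 3 lower by 2-fold, where 3.18% and 2.48% of the 11158 genes were. Its median log2 ratio was -0.67, against 0.15 over all genes. Gnb3, the G protein β subunit of ON bipolar cells and of cones, stood at 276 CPM and 625 CPM, a log2 ratio of 1.18. Gnb5, the obligate partner of RGS7 and RGS11, stood at 510 CPM and 249 CPM, a log2 ratio of -1.04. Gnb1, the β subunit of rod transducin, stood at 745 CPM and 296 CPM, a log2 ratio of -1.33. The 3 lower genes included Pcp2, a Go modulator of bipolar cells, at -1.23, and Rgs20 was at -0.60. Gnb3 was higher in the library with more cone-annotated nuclei, and Gnb1 was lower in the library with fewer rod-annotated nuclei. Within Cre-, cone-annotated nuclei held less Gnb3 than rod-annotated nuclei (236 against 315 CPM) and more Gnb1 (1105 against 887 CPM). That cone name was weakly borne out by its markers. In amacrine cells Gnb3 went from 109 CPM in Cre- to 216 CPM in Tet tcKO, and in RGCs from 65.8 to 159 CPM. Gnb1 went from 353 to 174 and from 337 to 211 CPM in these classes. In horizontal cells Gnb3 went from 145 CPM (23 UMIs) to 261 CPM (29 UMIs), with overlapping intervals. Gnb1 went from 265 to 270 CPM there. The part of the cone and rod numbers in the all-nuclei values was not tested.

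A second list held 8 genes of the photoreceptor side of the synapse. It had 0 genes higher and 1 lower by 2-fold, where 3.18% and 2.48% of the 11158 genes were. Its median log2 ratio was 0.02, against 0.15 over all genes. The lower gene was Cacna1f, the photoreceptor calcium channel subunit, at 360 CPM and 167 CPM with a log2 ratio of -1.11. Cacna2d4, its auxiliary subunit, was at -0.56. Egflam, which encodes pikachurin, was at 0.00, and Dag1, which encodes dystroglycan, at 0.43.

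Within the Cre- library, Grm6, Trpm1, Gpr179 and Prkca were highest in bipolar-annotated nuclei, but transcripts of every member except Nyx and Lrit3 were found in all 7 annotated classes. Trpm1 stood at 1742 CPM in bipolar-annotated nuclei, 785 CPM in rods, 538 CPM in cones, 815 CPM in Müller glia, 246 CPM in horizontal cells, 227 CPM in amacrine cells and 110 CPM in RGCs. Grm6 stood at 348 CPM in bipolar-annotated nuclei and 247 CPM in both rods and cones, then 167 CPM in Müller glia, 101 CPM in horizontal cells, 62.7 CPM in amacrine cells and 43.1 CPM in RGCs. The Grm6 values of rod- and cone-annotated nuclei did not differ beyond their intervals, and both were far above the RGC value. RNA from other cells was not tested as a part of these levels.

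Gpr179 stood at 340 CPM in bipolar-annotated nuclei, 239 CPM in Müller glia (53 UMIs), 167 CPM in rods, 125 CPM in cones and 29.3 CPM in RGCs. Prkca stood at 2086 CPM in bipolar-annotated nuclei, 1512 CPM in cones, 1290 CPM in rods and 316 CPM in RGCs. These genes shared the order of bipolar-annotated nuclei first and RGCs last, except that horizontal cells (366 CPM) and RGCs were close for Prkca.

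The RGS genes had another order. Rgs7 was highest in RGCs at 594 CPM and in horizontal cells at 581 CPM, with 511 CPM in bipolar-annotated nuclei and 343 CPM in rods. Rgs11 was highest in horizontal cells at 430 CPM, with 221 CPM in RGCs and 216 CPM in bipolar-annotated nuclei, which did not differ beyond their intervals. Gnao1 was highest in Müller glia at 612 CPM and in bipolar-annotated nuclei at 544 CPM, which also did not differ beyond their intervals. Nyx, Lrit3 and Cacna1s had 22, 21 and 29 UMIs in Cre- bipolar-annotated nuclei, too few to order the classes.

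Within the Tet tcKO library, Trpm1 stood at 527 CPM in bipolar-annotated nuclei, 273 CPM in cones, 234 CPM in horizontal cells, 121 CPM in Müller glia, 94.3 CPM in amacrine cells and 45.5 CPM in RGCs. Gpr179 stood at 182 CPM in bipolar-annotated nuclei, 127 CPM in Müller glia (19 UMIs), 102 CPM in cones and 20.6 CPM in RGCs. Grm6 stood at 185 CPM in bipolar-annotated nuclei and 273 CPM in cones, and so was highest in cone-annotated nuclei. Lrit3 stood at 50.8 CPM in bipolar-annotated nuclei, 28.6 CPM in cones, 9.39 CPM in amacrine cells and 7.97 CPM in RGCs, and at 60.3 CPM in Müller glia, where it rested on 9 UMIs.

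**Figure D2:**
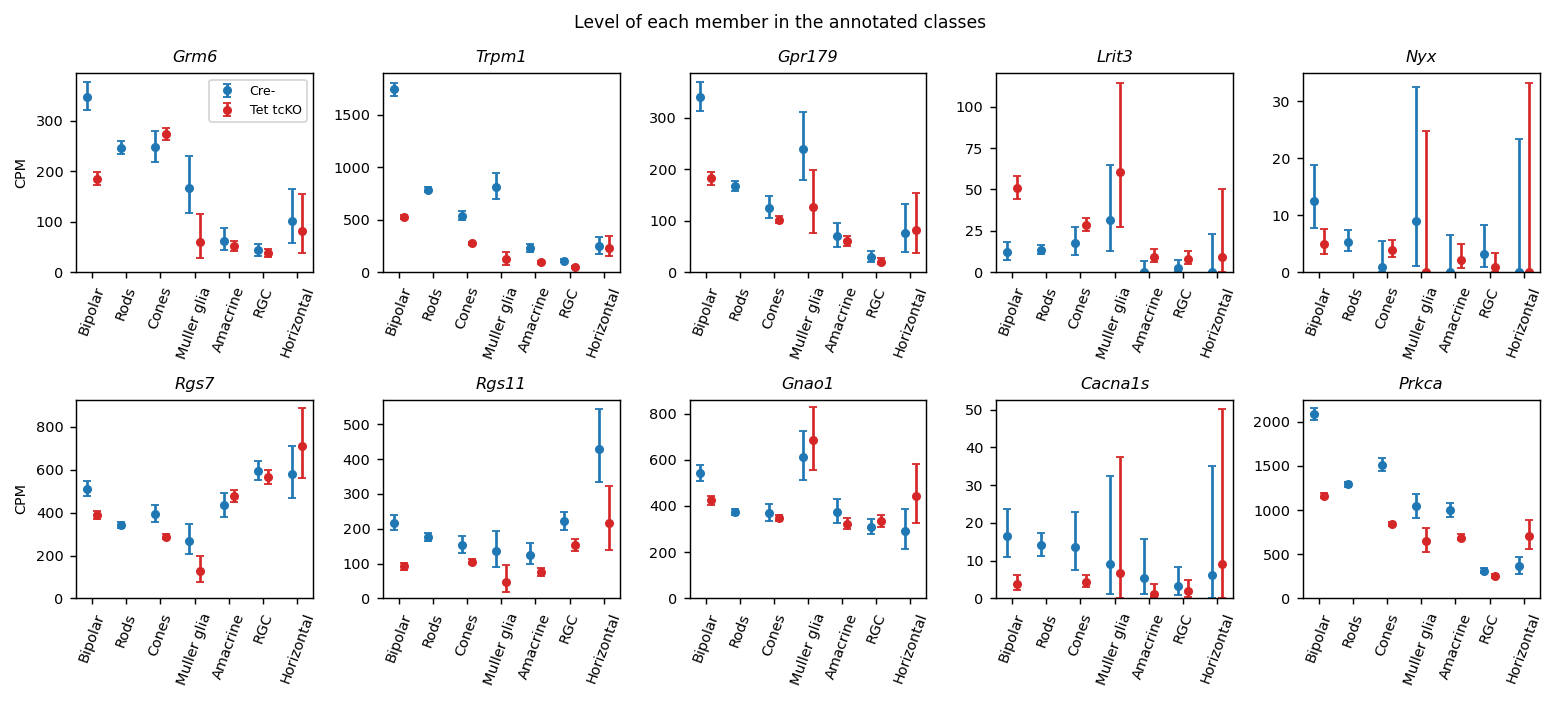
Level of each member (CPM, linear axes from 0) in the annotated classes of the Cre- (blue) and Tet tcKO (red) libraries, with 95% intervals for counting error. Tet tcKO rods (6 nuclei) are not drawn. Trpm1 and Gpr179 are highest in bipolar-annotated nuclei of each library, and Grm6 of Tet tcKO is higher in cones (273) than in bipolar-annotated nuclei (185).

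Bipolar-annotated nuclei were then set against rods and cones of the same library. The clusters were made from these same transcripts, so this is a description of the annotation and no test. In Cre-, 8 of 10 members were higher in bipolar-annotated nuclei with an interval above 0, against 20.9% of all genes, and 0 were lower, against 21.3%. The median log2 ratio was 0.54 over the members and -0.04 over all genes. In Tet tcKO, 8 members passed 10 CPM, of which 6 were higher, against 22.9% of all genes, and 2 were lower, against 44.3%. The median there was 0.45 over the members and -0.21 over all genes. Counting a gene at most once in a nucleus, the median over the 10 members was 0.18 in Cre-, against 0.096 over all genes, and 0.071 in Tet tcKO, against -0.047. The 2 lower members by summed UMIs were Grm6, at -0.56 (interval -0.68 to -0.44), and Rgs11, at -0.20 (interval -0.38 to -0.03).

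Trpm1 was higher in bipolar-annotated nuclei than in rods and cones by 1.21 (interval 1.15 to 1.28) on the log2 scale in Cre- and by 0.95 (interval 0.86 to 1.03) in Tet tcKO. Gpr179 was higher by 1.08 (interval 0.93 to 1.22) and 0.83 (interval 0.69 to 0.98). Grm6 was higher by 0.49 (interval 0.36 to 0.63) in Cre-, the opposite sign to its Tet tcKO value. Of the 14 bipolar markers outside the members, 7 were higher and 0 lower in Cre-, where 20.9% and 21.3% of all genes were. In Tet tcKO 3 were higher and 5 lower, where 22.9% and 44.3% of all genes were.

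Most member UMIs lay outside bipolar-annotated nuclei. Summed over the members, 25.4% (interval 25.0 to 25.8) of UMIs in Cre- and 35.3% (interval 34.9 to 35.8) in Tet tcKO came from bipolar-annotated nuclei, which held 15.3% and 26.8% of all UMIs. Counting a gene at most once in a nucleus, the members' shares were 14.3% and 27.2%, against 13.5% and 25.4% for all genes, a smaller excess than by UMIs. For Trpm1 the shares were 33.3% and 49.5%, and for Grm6 they were 23.4% and 26.9%. Rods and cones held 61.5% of Cre- Trpm1 UMIs and 71.2% of Cre- Grm6 UMIs, against 65.8% of all Cre- UMIs. Nuclei with 10 or more Trpm1 UMIs were almost all bipolar-annotated, 87 of 93 in Cre- and 40 of 41 in Tet tcKO.

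The bipolar-annotated clusters differed widely in the level of the cascade. There were 9 such clusters, 3 with at least 20 nuclei in Cre- (clusters 3, 4 and 7) and 6 in Tet tcKO (clusters 22, 35, 39, 41, 42 and 43), and 0 had 20 nuclei in each library, so no cluster was compared between the genotypes. In Cre-, Trpm1 stood at 1147 CPM in cluster 3, 2182 CPM in cluster 4 and 2722 CPM in cluster 7. Grm6 stood at 271, 395 and 490 CPM in the same clusters, and Gpr179 at 246, 407 and 495 CPM. Cluster 7, with 279 nuclei, was the highest of the 29 Cre- clusters of at least 20 nuclei for 5 of the 10 members. Among the 5, Nyx rested on 9 UMIs, and the share of all genes highest in cluster 7 was not computed.

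The median depth of these clusters ran the other way, at 3959, 2155 and 1169 UMIs per nucleus, and its part in the levels was not tested. Prkca followed the order of the ON genes, at 1571 CPM in cluster 3, 2548 CPM in cluster 4 and 2867 CPM in cluster 7. The 8 rod markers summed to 5089 CPM in cluster 3, 5151 CPM in cluster 4 and 3276 CPM in cluster 7, lowest where the ON genes were highest, and their part in the levels was not tested.

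In Tet tcKO, Trpm1 stood at 138 CPM in cluster 22, 412 CPM in cluster 35, 391 CPM in cluster 39, 909 CPM in cluster 41, 637 CPM in cluster 43 and 1521 CPM in cluster 42. Grm6 stood at 56.3, 142, 139, 243, 246 and 589 CPM in the same clusters, and Gpr179 at 56.3, 139, 127, 278, 271 and 501 CPM. Cluster 42, with 148 nuclei, was the highest of the 26 Tet tcKO clusters of at least 20 nuclei for 6 of the 10 members. Among the 6 members, Nyx rested on 5 UMIs, and Gnao1 was at 774 CPM against 770 CPM in Müller glia cluster 30. The share of all genes highest in cluster 42 was not computed. Among the 6 bipolar-annotated clusters, cluster 42 was the only one whose Grm6 interval (493 to 698) lay above the pooled rods and cones of that library. Its Prkca level was 2870 CPM, against 581 to 1467 CPM in the other five clusters. The list of 5 OFF bipolar markers also summed highest in cluster 42, at 2488 CPM against 292 to 1514 CPM in the other five, and Grik1, a kainate receptor subunit, made 2299 CPM of that sum. The part of this in the levels was not tested. In Cre-, cluster 42 had 14 nuclei with 25 Trpm1 and 35 Prkca UMIs.

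Lrit3 was highest in another cluster. It stood at 125 CPM (49 UMIs) in cluster 22, where Trpm1, Grm6 and Gpr179 were at their lowest among the bipolar-annotated clusters, and at 8.79 CPM (2 UMIs) in cluster 42. Cluster 22 also had the highest sum of the cone markers among these clusters, 12347 CPM, including 3553 CPM of the cone arrestin Arr3, against 2703 CPM for the sum in cluster 42. Lrit3 did not run opposite to the channel elsewhere, since cluster 41 was second for both, with 72.2 CPM of Lrit3 and 909 CPM of Trpm1. In Cre-, clusters 3, 4 and 7 held 11, 5 and 1 Lrit3 UMIs, with overlapping intervals. Without cluster 22 the ratio of Lrit3 over all nuclei was 1.18, a choice made after the values were seen.

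**Figure D3:**
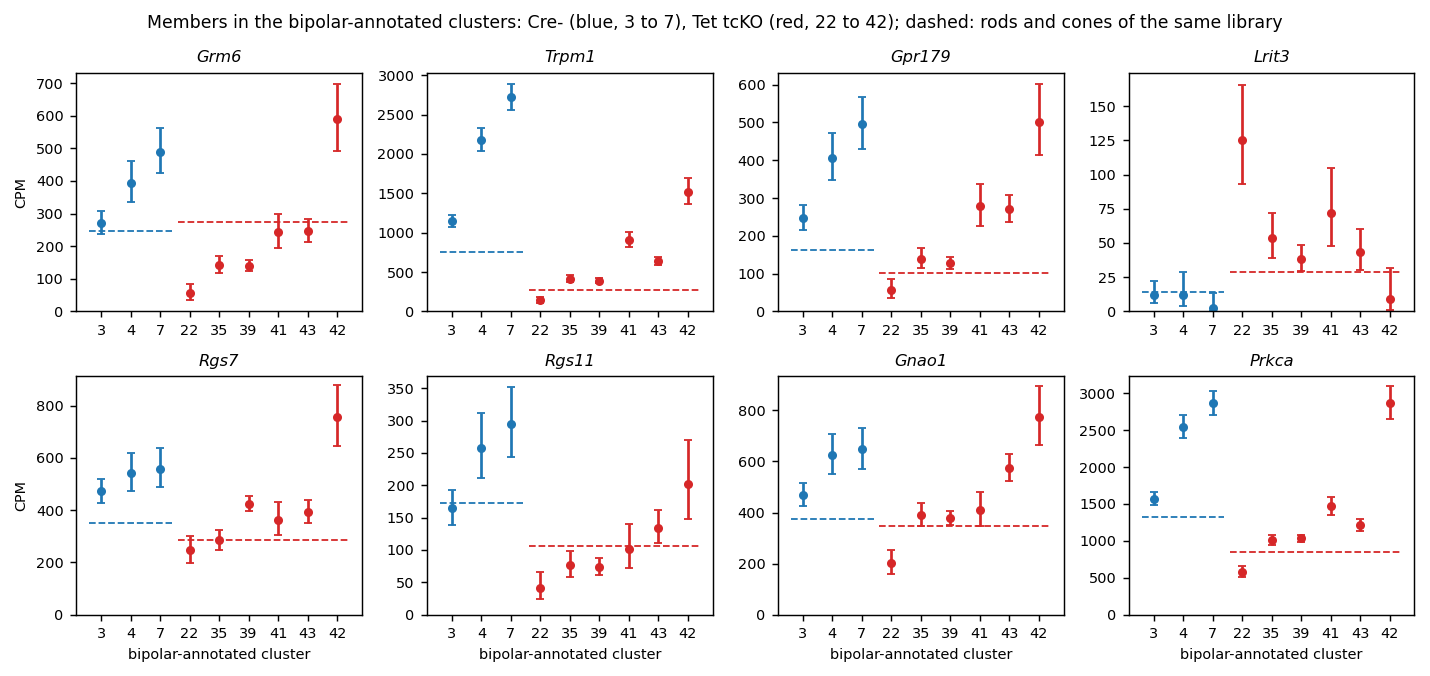
CPM of 8 members in each bipolar-annotated cluster of at least 20 nuclei, Cre- clusters in blue and Tet tcKO clusters in red, with 95% intervals for counting error and dashed lines at the level of rods and cones of the same library. Cluster 42 is the highest red point in 7 of the 8 panels, and in the Lrit3 panel cluster 22 is (125 CPM).

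Across the clusters of a library, the channel, the orphan receptor, the receptor and the kinase varied together. Over 25 Cre- clusters of at least 50 nuclei, Pearson's r of log2(CPM + 1) was 0.94 for Trpm1 with Gpr179, 0.93 with Grm6 and 0.94 with Prkca. Over 22 Tet tcKO clusters it was 0.90, 0.88 and 0.90. Rgs7 was not part of this pattern, with r of -0.50 in Cre- and -0.31 in Tet tcKO against Grm6. Rgs11 was at 0.19 and 0.32 against Grm6, and at 0.02 and 0.08 against Trpm1. Lrit3 was at 0.49 and 0.35 against Grm6, and at 0.48 and 0.53 against Trpm1. The points share a library and its capture, so these are descriptions.

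The number of Trpm1 UMIs per UMI of another member does not depend on how a library is scaled. Trpm1 had 4.71 UMIs per Gpr179 UMI in Cre- (interval 4.48 to 4.95) and 2.65 in Tet tcKO (interval 2.51 to 2.80). Within each library this ratio was nearly the same in bipolar-annotated nuclei and in rods and cones, 5.12 and 4.65 in Cre- and 2.89 and 2.67 in Tet tcKO. Within Cre- the clusters ran from 4.67 to 5.50 among those annotated as bipolar and from 2.96 to 9.00 among 14 rod clusters. Within Tet tcKO they ran from 2.35 to 3.27 among those annotated as bipolar and from 1.94 to 5.04 among 8 cone clusters.

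The ratio of Trpm1 to Grm6 did change with the class. It was 5.01 (interval 4.59 to 5.47) in bipolar-annotated nuclei and 3.04 (interval 2.89 to 3.21) in rods and cones of Cre-. In Tet tcKO it was 2.85 (interval 2.63 to 3.09) and 1.00 (interval 0.94 to 1.07). Among the 8 Tet tcKO cone clusters it ran from 0.68 in cluster 48 to 2.83 in cluster 52, and in the 6 bipolar-annotated clusters from 2.45 to 3.74. In Tet tcKO, Gpr179 per Grm6 was 0.85 to 1.14 in the bipolar-annotated clusters and 0.32 to 0.56 in the cone clusters. In Cre- the classes overlapped, with Gpr179 per Grm6 at 0.91 to 1.03 in bipolar-annotated and 0.50 to 1.07 in rod clusters, and Trpm1 per Grm6 at 4.23 to 5.55 and 1.95 to 4.85. Pooled over the Tet tcKO class, Grm6 transcripts of cone-annotated nuclei came with fewer transcripts of the channel and the orphan receptor than those of bipolar-annotated nuclei, though cluster 52 lay inside the bipolar range for Trpm1.

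**Figure D4:**
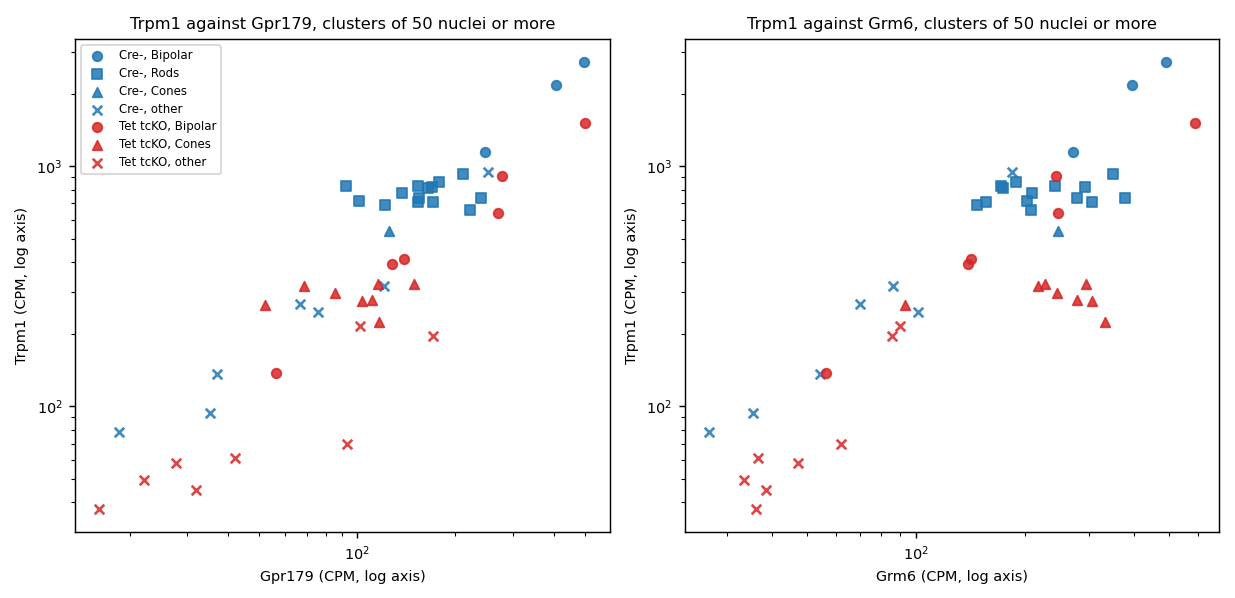
Trpm1 against Gpr179 (left) and against Grm6 (right) in clusters of at least 50 nuclei, CPM on log axes, with Cre- in blue and Tet tcKO in red and the annotated class given by the symbol. Over all nuclei there were 4.71 (Cre-) and 2.65 (Tet tcKO) Trpm1 UMIs per Gpr179 UMI, and 3.52 and 1.54 per Grm6 UMI.

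To set single nuclei side by side, each nucleus was thinned to 500 UMIs, which all nuclei reached. A Trpm1 UMI was then found in 52.2% (interval 48.4 to 56.1) of Cre- bipolar-annotated nuclei, 32.5% of rods and cones and 5.47% of RGCs, a class not known for the channel. Median depths before thinning were 1968 UMIs in bipolar-annotated nuclei and 1601 in RGCs. In Tet tcKO the shares were 17.8% (interval 16.0 to 19.7), 14.3% and 2.41%, with median depths of 2009 and 2381. Without thinning, the bipolar-annotated shares were 82.9% and 43.2%.

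Grm6 was found in 16.6% of Cre- bipolar-annotated nuclei, 11.2% of rods and cones and 3.17% of RGCs after thinning. In Tet tcKO it was found in 9.70% of bipolar-annotated nuclei, 12.2% of rods and cones and 1.99% of RGCs. Gpr179 was found in 16.0%, 8.05% and 1.06% in Cre- and in 9.52%, 5.08% and 0.85% in Tet tcKO. The rod and cone shares of these genes lay above the RGC shares in each library, although rods and cones were included as classes that should lack them. In Cre-, the 8 rod markers summed to 4675 CPM in bipolar-annotated nuclei and 8554 CPM in rods and cones. RNA from other cells was not tested as a part of these shares.

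At least 3 of the 10 members were seen in 33.5% of Cre- bipolar-annotated nuclei, 15.4% of rods and cones and 2.65% of RGCs. In Tet tcKO these shares were 10.4%, 6.28% and 1.42%. By cluster the share was highest in cluster 7 of Cre-, at 43.7% (interval 37.8 to 49.8), and in cluster 42 of Tet tcKO, at 28.4% (interval 21.3 to 36.4), and lowest in cluster 22, at 2.80%.

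**Figure D5:**
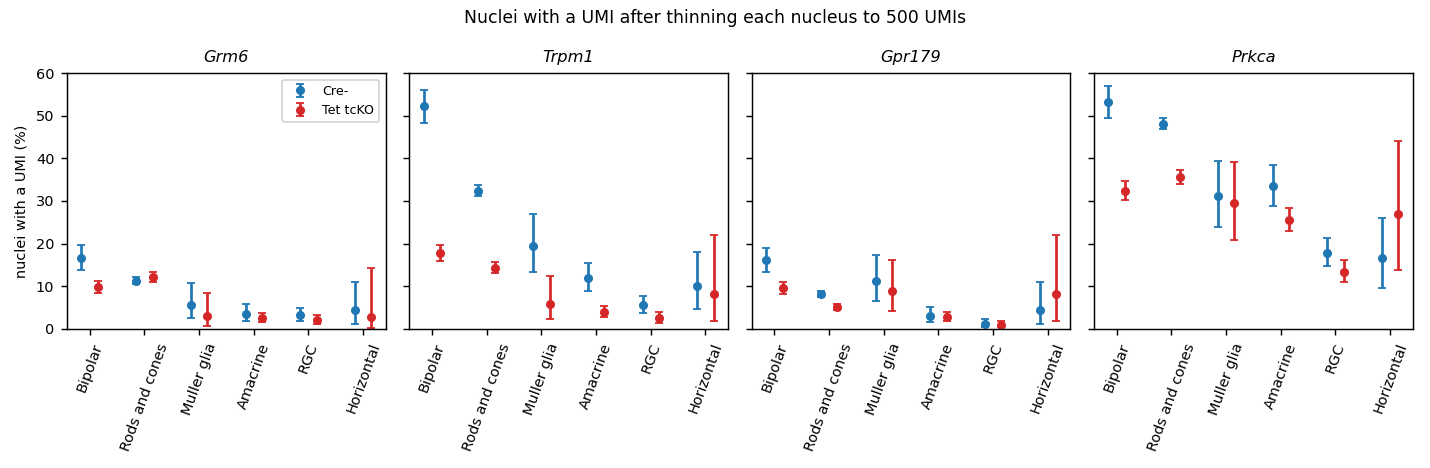
Percent of nuclei with at least 1 UMI of Grm6, Trpm1, Gpr179 or Prkca after thinning each nucleus to 500 UMIs, by annotated class, for Cre- (blue) and Tet tcKO (red), with 95% binomial intervals. For Trpm1, Cre- bipolar-annotated nuclei stand at 52.2% and RGCs at 5.47%.

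Amacrine cells and RGCs had no cluster that failed the marker check, so the 3 broadly used members were compared between the genotypes within them. A cluster with 0 markers of any class also passes this check, as did cluster 8 of the Cre- RGCs, so passing does not make the classes alike. In amacrine cells (403 and 1043 nuclei, with 256 of the Cre- nuclei in cluster 27 and 357 of the Tet tcKO nuclei in cluster 12), 0 of 3 members differed by 2-fold, where 6.35% of 4568 genes did. Rgs7 stood at 435 CPM and 479 CPM, a log2 ratio of 0.14 (interval -0.06 to 0.34). Gnao1 stood at 376 CPM and 322 CPM, a log2 ratio of -0.22 (interval -0.44 to 0.01). Prkca stood at 999 CPM and 689 CPM, a log2 ratio of -0.54 (interval -0.67 to -0.39). The Prkca interval lay below 0, and those of Rgs7 and Gnao1 included 0. Of the 7 members that met the same filter on low counts, 1 was past 2-fold, Trpm1, at 227 CPM and 94.3 CPM. Rgs11 was at 125 CPM and 74.7 CPM, a log2 ratio of -0.75 (interval -1.15 to -0.33), and the Grm6 and Gpr179 intervals included 0.

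In RGCs (567 and 704 nuclei, with 394 of the Cre- nuclei in cluster 8 and 273 of the Tet tcKO nuclei in cluster 31), 0 of 3 differed by 2-fold, where 3.08% of 4194 genes did. The log2 ratios were -0.07 (interval -0.20 to 0.06) for Rgs7, 0.11 (interval -0.07 to 0.29) for Gnao1 and -0.34 (interval -0.53 to -0.15) for Prkca. Of the 5 members that met the filter, 1 was past 2-fold, again Trpm1, and Rgs11 was at -0.54 (interval -0.77 to -0.30). Trpm1, a gene not known for these classes, had low counts in them. Its log2 ratio was -1.27 in both amacrine cells and RGCs, near its all-nuclei value of -1.50. RNA from other cells in these nuclei was not tested as a part of the Trpm1, Prkca or Rgs11 ratios of either class.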

How the data were processed

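Each genotype was 1 snRNA-seq library of P21 retinas. Per the labels, reads were processed with pipseeker v3.3.0 and aligned to GRCm39. The authors removed ambient RNA with CellBender and filtered nuclei (above 500, below 10000 transcripts, below 20% mitochondrial), and 14123 of 14123 deposited nuclei lay inside these bounds. The deposited matrices hold whole UMI counts, and the mitochondrial percent, the cell type names and the cluster numbers are the authors' own. The deposited size factor (a ratio) and the mean signal per genotype in the gene table, the authors' means, were not used.

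For each population, a gene's UMIs were added up and scaled by all UMIs there (CPM). Ratios have exact conditional intervals, levels exact Poisson intervals and shares Clopper-Pearson intervals, all at 95%. In ratios, 3 counts stood in for 0. With 1 library per genotype no test or p-value was possible, and a gene was called at 2-fold. In amacrine cells and RGCs, genes at 50 CPM in 1 library and 20 UMIs over both were used. No doublet caller was run, and an alternative left out the 5% of nuclei with the highest totals. The marker check asked, cluster by cluster, whether the 10 leading genes held more markers of some other class than of the annotated one, and a class with any such cluster did not pass. The tools were numpy 2.4.6, pandas 2.3.3 and scipy 1.17.1 under Python 3.11.15, and edgeR 4.0.16 in R 4.3.3 gave TMM factors. Calculations were tested on simulated data.

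The members, lists and rules were chosen with earlier results of these data known. The genes named were the 10 members, the 4 genes with the most UMIs of each other list, and the 5 genes most like Grm6 and the 5 most like Trpm1 across clusters, of which 1 is not reported here. Pcp2 and the marker genes Arr3, Grik1 and Tfap2a were named after their values were seen. The lists of ON pathway partners and of photoreceptor-side genes held 8 genes each. Alternatives changed the scaling, filters, nuclei and thinning.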

Additional observations from a re-analysis of the deposited data

Results flagged for a closer look

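The deposited gene table counts, for each gene, the nuclei in which it was detected. Summed over the 10 members, that column gave 46741 nuclei, against 40796 in the deposited matrices, a ratio of 1.146. The column was looked at because no result of the report uses it, and which nuclei or reads it covers was not tested. Its ratio ran from 1.13 for Prkca to 1.27 for Lrit3.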

How the results depend on the processing

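No paired analysis was possible because each genotype was 1 library. Each member's all-nuclei ratio kept its sign in 71 of 71 recomputed values. Of all 513 recomputed values, 314 stayed within their error and 199 moved beyond it. A reversal could be recorded only for a ratio past 2-fold, and 0 were recorded. Of the 71 summary values (medians, counts and shares), 25 moved. The ratio ran from -0.41 to -0.074 for Grm6, from -0.29 to -0.059 for Rgs7 and from -1.60 to -1.25 for Trpm1. The median log2 ratio of the members was -0.76 with TMM factors and -0.76 with median-of-ratios size factors. The partner list's median was -0.78 with TMM factors, -0.78 with median-of-ratios size factors and -0.50 with Cre- class shares in both libraries. These factors lowered the median of all genes from 0.15 to 0.04 and 0.03. Among genes at 50 CPM or more, 0 members were higher and 1 was lower by 2-fold, against 2.58% and 2.83% of 4849 genes.

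The share of summed member UMIs in bipolar-annotated nuclei of Cre- was 14.3% with each gene counted once per nucleus, 29.2% in nuclei of 1000 UMIs or more and 20.1% without the 5% of nuclei with the highest totals. In Tet tcKO it was 27.2% once per nucleus, 33.5% without those nuclei and 30.0% with only the clusters that passed the marker check. The members' median over rods and cones was 0.18 in Cre- and 0.071 in Tet tcKO once per nucleus. It was 0.39 in Tet tcKO over all 10 members by summed UMIs.

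The share of nuclei with a Trpm1 UMI changed with the thinning used. Thinning to 1000 UMIs left out nuclei below that depth, so its values cover a different set of nuclei. In Cre- bipolar-annotated nuclei the share with a Trpm1 UMI was 68.1% at 1000 UMIs and 82.9% unthinned, and in Tet tcKO 26.7% and 43.2%. In rods and cones it was 52.6% at 1000 UMIs, 58.8% unthinned and 30.9% with another random seed in Cre-, and 24.8%, 42.9% and 13.0% in Tet tcKO. In Tet tcKO without cluster 42, chosen after the values were seen, bipolar-annotated nuclei over rods and cones gave -0.74 for Grm6 and 0.79 for Trpm1. Nyx, Lrit3 and Cacna1s rest on 58 to 487 UMIs per library, and animals, pools and preparations could not be separated from genotype.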

Other observations

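Across 47 pseudobulks (clusters of at least 50 nuclei in a library, from both libraries), the genes whose log2(CPM + 1) was most like that of Grm6, among 11158 genes at 10 CPM or more, were Igfn1 (Pearson's r of 0.92), Cacna2d4, the photoreceptor calcium channel subunit (0.90), Asic3, an acid-sensing channel (0.90), Samsn1 (0.90) and Lrtm1 (0.89). Those most like Trpm1 included Gm20754 (0.95), Gm38353 (0.94), Prkca (0.91) and Map4, a microtubule-associated protein (0.90). Gpr179 was 6th for Trpm1 and 13th for Grm6, and Trpm1 was 15th for Grm6. Over all nuclei the log2 ratio of Tet tcKO over Cre- was -0.79 for Gm20754 and -1.05 for Asic3. The values describe likeness across clusters of both libraries.

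The 22 nuclei of Cre- cluster 45, annotated as rods, held 0 UMIs of Grm6 and of Gpr179 and 3 of Trpm1, or 160 CPM. That was the lowest Trpm1 level of the 15 rod clusters, whose median was 738 CPM. In this cluster 1 UMI stood for 53.4 CPM, so these counts lie near the floor. In Tet tcKO, 5 nuclei fell in cluster 7, the Cre- cluster with the highest Trpm1 level, and held 58 Prkca UMIs, or 8609 CPM.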
